A study of Mus musculus with 2 samples.

Results

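Hyaluronan is a long unbranched sugar polymer that is spun out through the plasma membrane by the synthases of the Has family, and it fills the space between cells in stroma. Cemip (also called HYBID or KIAA1199) and the hyaluronidases Hyal1 and Hyal2 take part in cutting it, Cd44 is its main cell surface receptor, and Vcan encodes versican, a large proteoglycan that binds hyaluronan in the matrix. In mammary tissue and its tumors hyaluronan is known as a component of the stroma around ducts and tumor cells. Has1, Has2, Has3, Cemip, Hyal1, Hyal2, Cd44 and Vcan were taken by their symbols, and all 8 were found once each among the 32285 genes of the count matrices.

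The genes were read in single cells sorted as live and CD45- from mammary tumors of mice. There was 1 labelled Dll1+ control tumor and 1 labelled Dll1- control tumor, with 1 library each. The labels give no strain, age or genotype, and the sources used here do not say how Dll1 status was assigned. The tumors had been dissociated with collagenase and hyaluronidase, then trypsin and Dispase, and stained for CD31, CD45 and Ter119 before sorting. With 1 tumor per group no test between tumors was possible, so no p-value is given, and a difference between the libraries cannot be told apart from a difference between 2 individual tumors or 2 sorts.

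The libraries held 13819 barcodes and 117230907 unique molecular identifiers (UMIs, a count of captured transcripts) for the Dll1+ tumor, and 13097 barcodes and 135960457 UMIs for the Dll1- tumor. After filtering, 9685 Dll1+ cells with a median of 7882 UMIs and 10132 Dll1- cells with a median of 9904 UMIs were kept, and the kept cells had a median of 5.39% and 3.54% mitochondrial UMIs. The libraries shared 109 barcodes, of which 57 were kept in the Dll1+ and 61 in the Dll1- library. Dll1 itself was at 53.4 CPM (UMIs of a gene scaled by all UMIs of the same cells) in Dll1+ epithelial-like cells, against 3.97 CPM in Dll1- epithelial-like cells. Clustering gave 8222 Dll1+ and 8717 Dll1- epithelial-like cells, 332 and 573 fibroblast-like cells, 248 and 166 pericyte-like cells, 255 and 280 endothelial-like cells, and a class led by Krt5 with 306 and 294 cells that carried both basal and keratinocyte markers and was therefore called by its leading gene. The 8 fibroblast markers summed to 54712 CPM in Dll1+ and 33901 CPM in Dll1- fibroblast-like cells, and to 10607 and 15192 CPM in pericyte-like cells. Macrophage-like cells numbered 22 and 5, too few to describe.

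Levels are given as CPM over all cells of a class in a library with an exact Poisson 95% interval, and each ratio as Dll1+ over Dll1- with an exact binomial 95% interval. Both intervals cover counting error only and not the variation between tumors or between the cells of a class. A gene counted as measured in a class at 30 or more UMIs over both libraries, and as higher or lower where the ratio of CPM plus 1 reached 1.5-fold in either direction. The counts come from transcript 3′ ends and are not divided by length, so levels are compared between classes for the same gene and not between genes.

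Across the 5 classes the genes differed in where their CPM was highest, and several shared a class. Has1, Vcan and Cemip were highest in fibroblasts, and Has2 was spread over fibroblasts, pericytes and Krt5-led cells. Hyal2 was highest in endothelial cells, with an interval that overlapped that of Krt5-led cells in the Dll1+ library. Hyal1 was highest in Krt5-led cells, and Cd44 was found in every class but at 10 CPM or less in endothelium. Between the tumors, Cemip was 12.5-fold higher in fibroblast-like cells of the Dll1+ tumor, and 6.58-fold and 3.95-fold higher within the sub-states kept in that class that mainly carried it. With the 4 fibroblast sub-states weighted alike its log2 ratio was 2.12, against 3.56 over the class. Cd44 was lower in epithelial-like and Krt5-led cells of the Dll1+ tumor, but in epithelial-like cells the direction turned round, to a log2 ratio of 0.23 against -1.42, when the sub-states shared by both tumors were weighted alike. Of these, epithelial sub-states 1 and 6 had lower Cd44 in the Dll1+ tumor, and sub-state 3, with the most Cd44, had higher.

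**Figure D1:**
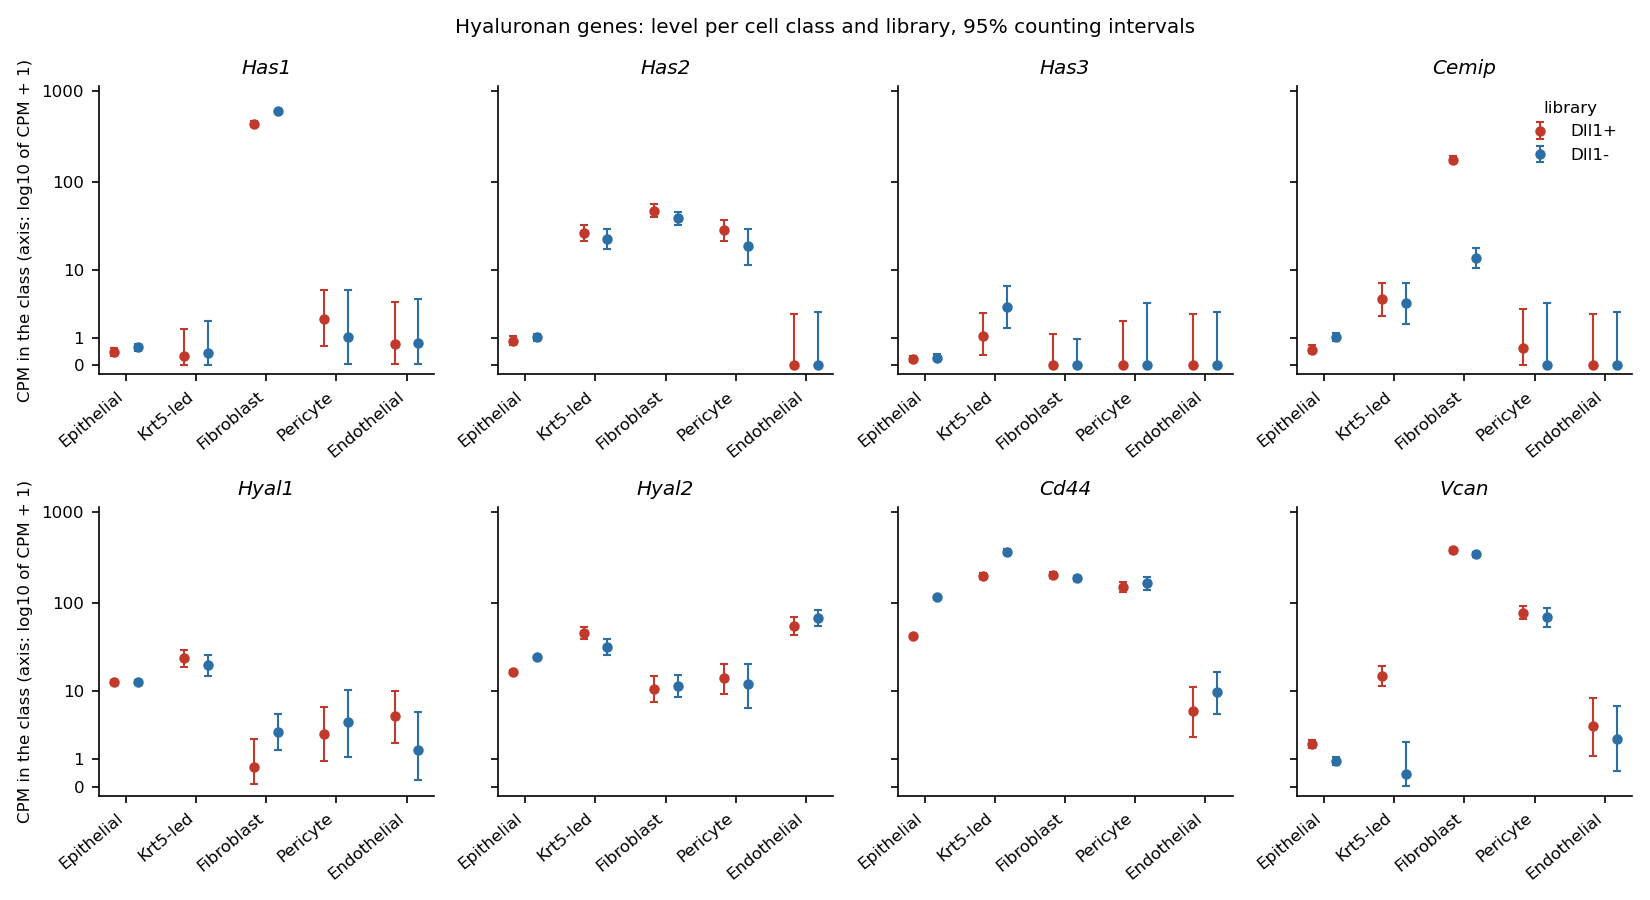
Level of each of the 8 genes (one panel each) in the 5 cell classes, in CPM on a log10(CPM + 1) axis, with the Dll1+ library in red on the left and the Dll1- library in blue on the right of each pair; bars are exact Poisson 95% intervals for counting error. Has1 at 434.9 and 594.3 CPM stands in fibroblast-like cells alone, while the Cemip points of the fibroblast-like class are far apart, at 174.6 CPM in Dll1+ and 13.9 CPM in Dll1- cells.

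Has1 (ENSMUSG00000003665; mm10 chr17:17843323-17855205, minus strand) encodes a hyaluronan synthase. It reached 434.9 CPM (412.0 to 458.8, 1345 UMIs) in Dll1+ fibroblast-like cells and 594.3 CPM (570.7 to 618.6, 2388 UMIs) in Dll1- fibroblast-like cells. The fibroblast-like class held 92.2% of all Has1 UMIs of kept Dll1+ cells and 96.6% of those of kept Dll1- cells. Has1 was at 2.22 CPM or less in every other class of both libraries. A Has1 UMI was seen in 53.0% of Dll1+ and 68.8% of Dll1- fibroblast-like cells, and in 36.1% and 51.2% after each cell was thinned to 2000 UMIs. In endothelial-like cells, taken as the background for free RNA, the unthinned share was 0.392% in Dll1+ and 0.357% in Dll1- cells, at median depths of 4698 and 3730 UMIs, against 9251 and 6628 UMIs in fibroblast-like cells. The fibroblast level was 1.37-fold lower in the Dll1+ tumor (1.28 to 1.46), with a log2 ratio of CPM plus 1 of -0.45, short of the 1.5-fold mark.

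Has2 (ENSMUSG00000022367; chr15:56665627-56694539, minus strand), the synthase needed for most embryonic hyaluronan in mice, had a broader pattern that was not confined to stroma. In fibroblast-like cells it was at 47.9 CPM (40.5 to 56.2) in the Dll1+ and 39.1 CPM (33.2 to 45.7) in the Dll1- library. Pericyte-like cells had 28.8 CPM (21.5 to 37.8, 52 UMIs) in Dll1+ and 19.1 CPM (11.5 to 29.9, 19 UMIs) in Dll1-, and Krt5-led cells had 26.9 CPM (21.9 to 32.7) and 23.0 CPM (17.7 to 29.5). The pericyte and Krt5-led intervals overlapped within each library, so these neighbours in the order could not be separated, whereas the fibroblast interval of pooled UMIs lay above both. As shares of cells with a Has2 UMI after thinning, the intervals of the fibroblast-like class overlapped both others. In the order fibroblast-like, pericyte-like and Krt5-led, the shares were 6.90%, 5.06% and 2.68% in Dll1+ and 7.16%, 2.53% and 3.50% in Dll1- cells. Epithelial-like cells had 0.853 CPM of Has2 in Dll1+ and 1.01 CPM in Dll1-. Of all Has2 UMIs of kept cells, fibroblast-like cells held 37% in the Dll1+ and 44.2% in the Dll1- library. Krt5-led cells held 25.25% and 17.5%, and the far more numerous epithelial-like cells 17.75% and 29.9%. No Has2 UMI was found in 255 Dll1+ or 280 Dll1- endothelial-like cells, which allows up to 2.13 and 2.28 CPM at 3 counts. The fibroblast ratio was 1.22 (0.97 to 1.54) and the pericyte ratio 1.504 (0.87 to 2.69), and with 1 CPM added to both sides no Has2 ratio reached 1.5-fold in any class.

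Has3 (ENSMUSG00000031910; chr8:106870242-106884566, plus strand), the remaining synthase, was the rarest of the 8 genes. Kept cells held 17 Has3 UMIs in the Dll1+ and 32 in the Dll1- library. Krt5-led cells had 4 and 9 of them, at 1.07 and 3.34 CPM, and epithelial-like cells 13 and 22, at 0.156 and 0.209 CPM. Fibroblast-like, pericyte-like and endothelial-like cells had 0 Has3 UMIs in both libraries, which in fibroblasts allows up to 0.970 CPM in Dll1+ and 0.747 CPM in Dll1- cells. The last 704 bases of Has3 overlap Chtf8 on the opposite strand, and the strand setting of the counting is not stated.

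Has2os, the antisense transcript of Has2, lies on the opposite strand at chr15:56689944-56778399 and overlaps Has2 over 4596 bases, and no source used here states the strand setting of the counting, so reads in the shared stretch may have been assigned to either gene. It was at 12.9 CPM (40 UMIs) in Dll1+ and 20.2 CPM (81 UMIs) in Dll1- fibroblast-like cells, 1.56-fold lower in the Dll1+ tumor (1.05 to 2.34). Has2 in the same cells had the higher point value in the Dll1+ tumor.

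Cemip (ENSMUSG00000052353; chr7:83932857-84086502, minus strand) encodes a hyaluronan-binding protein needed for hyaluronan depolymerisation in skin fibroblasts. It was at 174.6 CPM (160.2 to 190.0, 540 UMIs) in Dll1+ fibroblast-like cells and 13.9 CPM (10.5 to 18.1, 56 UMIs) in Dll1- fibroblast-like cells, 12.5-fold higher in the Dll1+ tumor (9.50 to 16.8). Of the 10129 genes measured in fibroblast-like cells, 1 had a higher ratio. Cemip was detected in 74 of 332 Dll1+ cells (22.3%) and 22 of 573 Dll1- cells (3.84%), and after thinning in 12.2% and 1.47%. The 10 cells with the most Cemip held 43.3% of its UMIs in Dll1+ and 78.6% in Dll1- fibroblast-like cells, so a few cells carried much of the signal in both. It had 0 UMIs in endothelial-like cells of both libraries. Krt5-led cells had 4.27 CPM in Dll1+ and 3.72 CPM in Dll1-, and epithelial-like cells 0.481 CPM (40 UMIs) and 1.01 CPM (107 UMIs). Fibroblast-like cells held 84.5% of the Cemip UMIs of the Dll1+ library, against 29.0% of those of the Dll1- library, where epithelial-like cells held 55.4%.

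In fibroblast-like cells 6 of the 8 genes were measured; Cemip was higher in the Dll1+ tumor, none was lower, and Has1, Has2, Hyal2, Cd44 and Vcan lay between. Of all genes measured in that class, 8.58% were higher and 5.27% lower by the same rule. Hyal1, with 2 and 12 UMIs, and Has3 were not measured there.

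**Figure D2:**
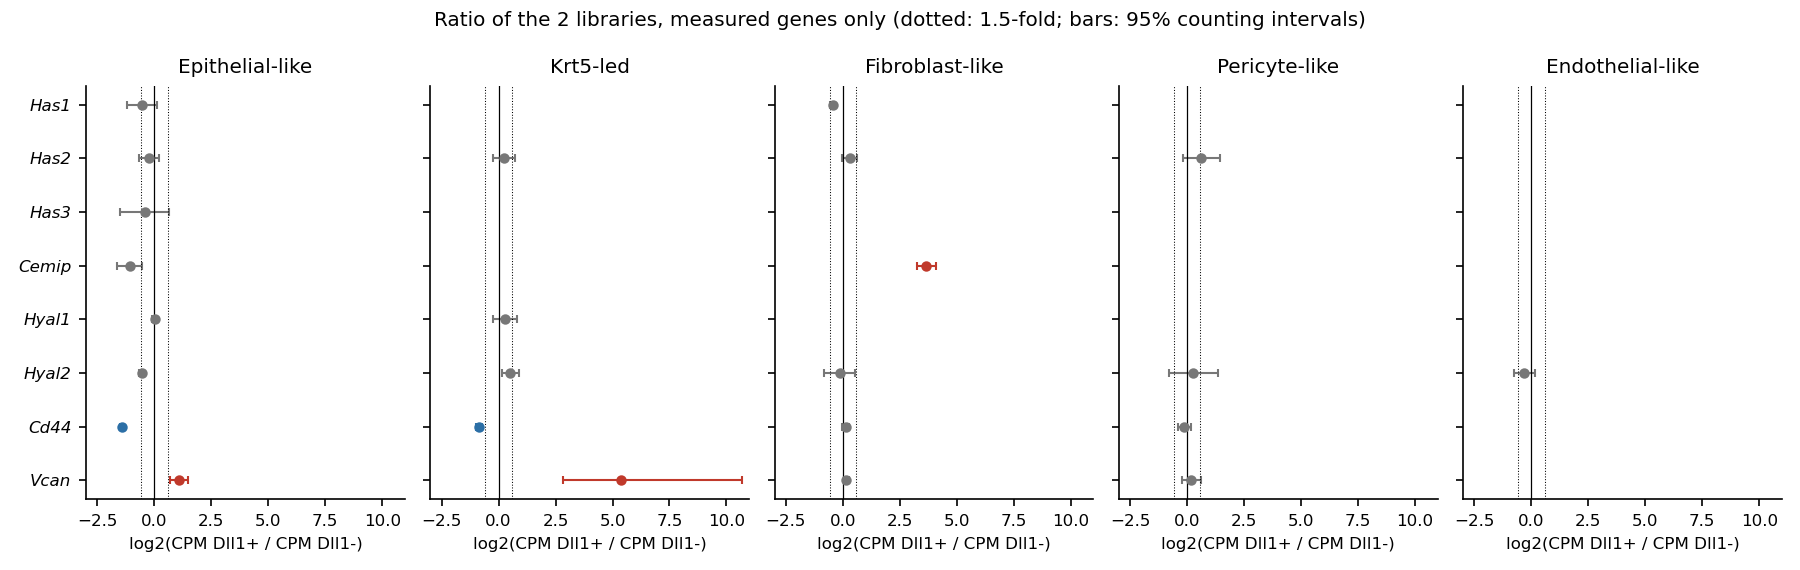
Log2 ratio of CPM, Dll1+ over Dll1-, for the measured genes in each class, with exact binomial 95% intervals; dotted lines mark 1.5-fold, red points are called higher, blue points lower and gray points neither, by the ratio of CPM plus 1. Cemip in fibroblast-like cells (12.5-fold) and Vcan in Krt5-led cells (57 against 1 UMIs) lie far to the Dll1+ side, and Cd44 in epithelial-like and Krt5-led cells lies on the Dll1- side.

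Fibroblast-like cells fell into sub-states that differed in these genes. The sub-states were clusters made on the same transcripts, so levels across them are a description. Sub-state 1 was led by Smpd3, Car8 and Thbd (38 Dll1+ and 353 Dll1- cells), sub-state 2 by Saa3, Apoe and Ccl19 (129 and 126), sub-state 3 by Mgp, Igfbp2 and Tagln (122 and 40), and sub-state 4 by the cell division genes Birc5 and Top2a (43 and 54). Among these sub-states, Cemip was carried mainly by sub-states 2 and 3. It was at 204.9 CPM in Dll1+ and 31.2 CPM in Dll1- cells of sub-state 2, 6.58-fold higher (4.49 to 9.95), and at 250.0 and 63.2 CPM in sub-state 3, 3.95-fold higher (2.49 to 6.66). In sub-state 1 it had 1 UMI in Dll1+ and 2 UMIs in Dll1- cells, and in sub-state 4 it had 4 and 5 UMIs, at 8.73 and 8.97 CPM. A further sub-state, led by Csn3, Krt18 and Wfdc18 (23 Dll1+ and 14 Dll1- cells), had been moved out of the class and left unnamed. It also carried Cemip, at 122.0 CPM in Dll1+ and 88.2 CPM in Dll1- cells, a ratio of 1.38 (0.77 to 2.56).

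Has1 was spread differently from Cemip over the sub-states. It was at 743.6 CPM in Dll1+ and 675.2 CPM in Dll1- cells of sub-state 1, at 531.7 and 625.3 CPM in sub-state 2, at 131.1 and 149.8 CPM in sub-state 3, and at 750.8 and 461.0 CPM in the dividing sub-state 4. The ratio in sub-state 4 was 1.63-fold higher in the Dll1+ tumor (1.38 to 1.92), opposite in direction to the class as a whole. In single Dll1+ fibroblasts thinned to 2000 UMIs, Has1 was detected in 6 of 39 with Cemip (15.4%, Clopper-Pearson interval 5.86 to 30.5%), against 109 of 280 without (38.9%, 33.2 to 44.9%). Without thinning the Dll1+ intervals overlapped, at 36 of 74 (48.6%, 36.9 to 60.6%) with Cemip and 140 of 258 (54.3%, 47.97 to 60.5%) without. In Dll1- fibroblasts the thinned counts were 1 of 8 with Cemip (0.316 to 52.7%) and 278 of 537 without (47.4 to 56.1%), whose intervals overlapped, and the unthinned ones 8 of 22 (17.2 to 59.3%) and 386 of 551 (66.04 to 73.9%), whose intervals did not. These counts pool the sub-states and the cells of 1 tumor per library. Sub-state 3, with the lowest Has1, had the highest Cemip in both libraries, and the part of the sub-states in the difference was not tested.

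Has2 was highest in the dividing sub-state of the Dll1+ tumor, at 115.7 CPM against 37.7 CPM in Dll1- cells, 3.07-fold higher (1.82 to 5.36). It was also higher in Dll1+ cells of sub-state 2, at 44.4 against 16.6 CPM (2.67-fold, 1.51 to 5.01), while sub-state 1 had 65.3 and 51.0 CPM and sub-state 3 had 20.1 and 26.6 CPM. With the 4 sub-states weighted alike, a setting chosen after the data were seen, the log2 ratio of Has2 was 0.88, past 1.5-fold, against 0.29 over all fibroblast-like cells, and that of Has1 was 0.17, against -0.45.

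**Figure D3:**
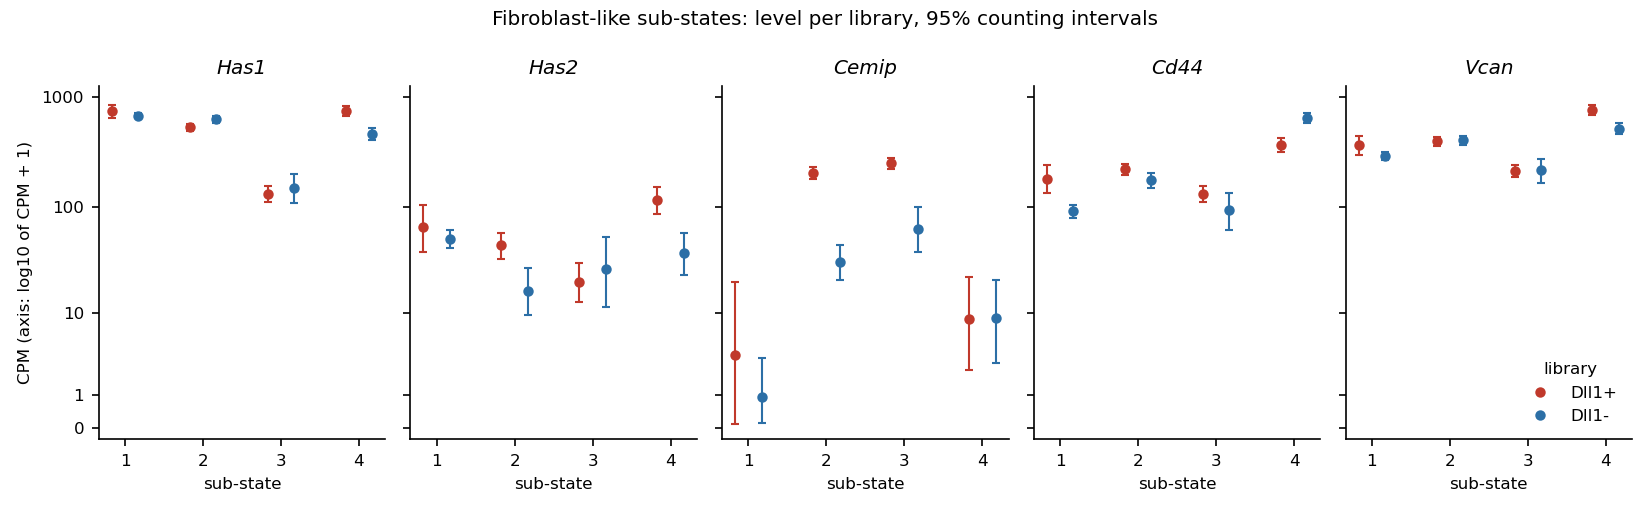
Has1, Has2, Cemip, Cd44 and Vcan in fibroblast sub-states 1 to 4, in CPM on a log10(CPM + 1) axis, with the Dll1+ library in red on the left and the Dll1- library in blue on the right of each pair and exact Poisson 95% intervals for counting error. Cemip stands in sub-states 2 and 3 and Has1 is lowest in sub-state 3, at 131.1 and 149.8 CPM.

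Hyal2 (ENSMUSG00000010047; chr9:107567945-107572779, plus strand), a hyaluronidase anchored at the cell surface, was highest in endothelial-like cells, at 56.0 CPM (44.3 to 69.8) in Dll1+ and 69.3 CPM (55.8 to 85.1) in Dll1-. Next came Krt5-led cells with 46.4 and 32.7 CPM, then epithelial-like cells with 17.0 and 25.1 CPM, pericyte-like cells with 14.4 and 12.1 CPM and fibroblast-like cells with 10.7 and 11.7 CPM. The endothelial and Krt5-led intervals overlapped in the Dll1+ library and were separate in the Dll1- library, and the pericyte and fibroblast intervals overlapped in both. The epithelial interval overlapped the pericyte one in the Dll1+ library only. In epithelial-like cells Hyal2 was 1.48-fold lower in the Dll1+ tumor (1.38 to 1.58) and in Krt5-led cells 1.42-fold higher (1.09 to 1.86), neither reaching the 1.5-fold mark when scaled by UMI totals. Hyal2 was the only member measured in endothelial-like cells, with a ratio of 0.81, where 9.93% of all measured genes were higher and 4.43% lower.

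Hyal1 (ENSMUSG00000010051; chr9:107576927-107581710, plus strand), the lysosomal hyaluronidase, was highest in Krt5-led and then epithelial-like cells. It was at 24.3 CPM (19.5 to 29.8) in Dll1+ and 20.1 CPM (15.1 to 26.2) in Dll1- Krt5-led cells, and at 12.95 and 12.87 CPM in epithelial-like cells, a ratio of 1.01 (0.93 to 1.09). Endothelial-like, pericyte-like and fibroblast-like cells had between 2 and 12 Hyal1 UMIs per library. Hyal1 shares its last 2824 bases with Naa80 and its last 893 bases with Hyal3 on the same strand, and reads from those stretches could not be assigned with certainty. The shared stretches reach the 3′ end of Hyal1, where the counts come from, so this limit applies to all the Hyal1 levels given here.

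Cd44 (ENSMUSG00000005087; chr2:102811141-102901665, minus strand) encodes the receptor through which many cells adhere to and take up hyaluronan. In epithelial-like cells it was at 43.3 CPM (41.9 to 44.7, 3600 UMIs) in the Dll1+ tumor and 117.5 CPM (115.4 to 119.6, 12391 UMIs) in the Dll1- tumor, 2.72-fold lower (2.62 to 2.82). A Cd44 UMI was seen in 23.2% of Dll1+ and 57.4% of Dll1- epithelial-like cells, against 2.35% and 3.57% of endothelial-like cells. After thinning the shares were 7.30% and 19.9% of epithelial-like cells, against 0.455% and 2.20% of endothelial-like cells. Krt5-led cells had 199.99 CPM in Dll1+ and 366.8 CPM in Dll1-, 1.83-fold lower (1.67 to 2.02). In fibroblast-like cells the levels were 206.0 and 187.6 CPM and in pericyte-like cells 150.6 and 165.2 CPM, and the intervals of the 2 libraries overlapped in both classes. The order of the classes differed: Krt5-led and fibroblast-like cells overlapped at the top in the Dll1+ library, and in the Dll1- library Krt5-led cells stood alone above overlapping fibroblast-like and pericyte-like cells. Endothelial-like cells had 8 and 13 Cd44 UMIs, at 5.67 and 9.90 CPM.

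Among the epithelial-like cells, Cd44 followed the sub-state. Sub-state 3, led by Lgals3 and Krt7, had 342.6 CPM in 198 Dll1+ cells and 240.1 CPM in 2993 Dll1- cells, 1.43-fold higher in the Dll1+ tumor (1.32 to 1.55), and held 18.6% of the class's Cd44 UMIs in the Dll1+ and 55.5% in the Dll1- library. Sub-state 1, led by the milk protein genes Lalba and Wap, had 54.1 and 70.0 CPM in 1262 Dll1+ and 5056 Dll1- cells. The dividing sub-state 6 had 43.2 and 65.5 CPM, 1.52-fold lower (1.24 to 1.86), and sub-state 8, led by Sprr1a, had 224.4 and 254.7 CPM in 13 and 131 cells. Sub-state 2, led by Prpmp5 and Cxcl10, had 20.7 CPM in 4836 Dll1+ cells and only 2 Dll1- cells, and sub-state 4, led by Rbp7 and Ptn, had 11.5 CPM in 895 Dll1+ cells and no Dll1- cell. When sub-states 1, 3 and 6, which held 50 or more cells of both libraries, were weighted alike and the others left out, the log2 ratio of Cd44 became 0.23, against -1.42 over all epithelial-like cells. The direction of the class value thus turned round, with Cd44 lower in the Dll1+ tumor in sub-states 1 and 6 and higher in sub-state 3. The weighting averaged CPM and not ratios, so sub-state 3, with the highest level, counted most.

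**Figure D4:**
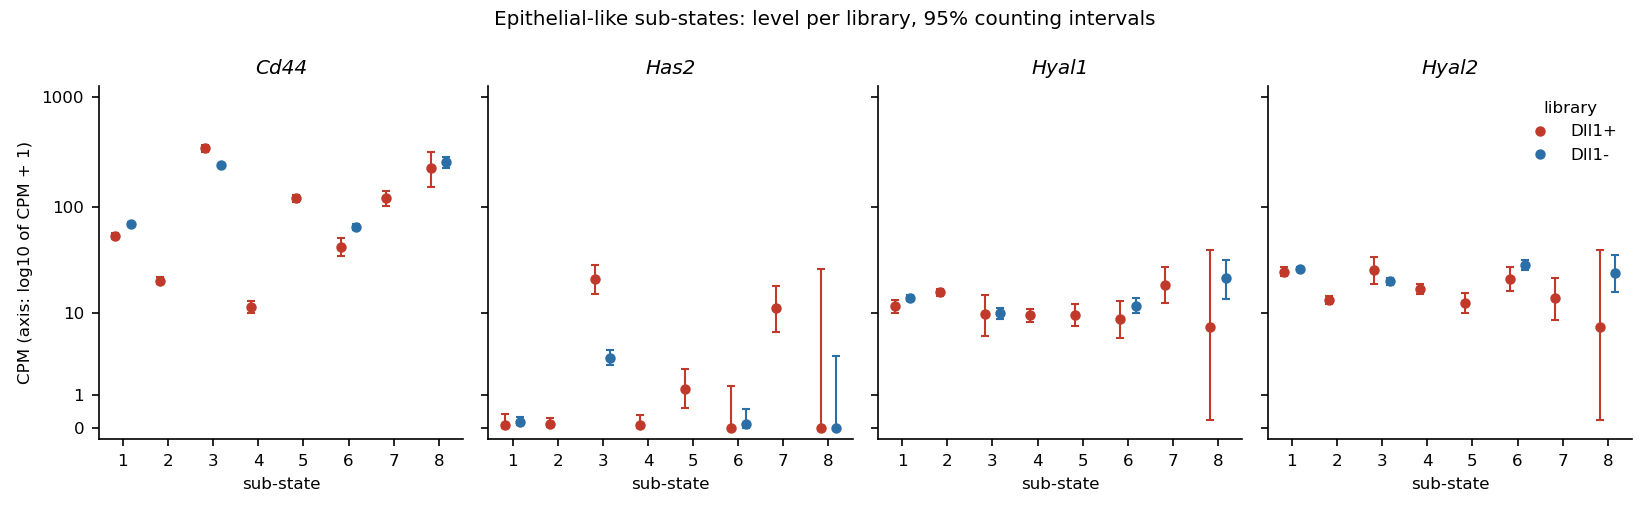
Cd44, Has2, Hyal1 and Hyal2 in epithelial sub-states 1 to 8, in CPM on a log10(CPM + 1) axis, with the Dll1+ library in red on the left and the Dll1- library in blue on the right and exact Poisson 95% intervals; a library with under 10 cells in a sub-state is not drawn. Cd44 and Has2 are both highest in sub-state 3 among the sub-states of the Dll1+ library, and sub-states 2 and 4 of the Dll1+ library have the lowest Cd44.

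The few Has2 UMIs of epithelial-like cells also lay mostly in sub-state 3. It was at 21.5 CPM (42 UMIs) in Dll1+ and 3.35 CPM (96 UMIs) in Dll1- cells of that sub-state, 6.40-fold higher (4.35 to 9.30), and the sub-state held 59.2% and 90.6% of the class's Has2 UMIs with 2.41% and 34.3% of its cells. These UMIs came from few cells, 17 of 198 Dll1+ and 43 of 2993 Dll1- cells of the sub-state, and over the class the 10 cells with the most Has2 held 63.4% of its UMIs in the Dll1+ and 44.3% in the Dll1- library. Sub-state 7, led by Spp1 and Chil1, had 11.2 CPM of Has2 in the Dll1+ library (16 UMIs). Hyal2 varied less, from 12.5 CPM in sub-state 5 to 26.1 CPM in sub-state 3 among the sub-states with over 100 Dll1+ cells, and was at 25.2 CPM in Dll1+ and 26.5 CPM in Dll1- cells of sub-state 1.

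Cd44 differed between sub-states in fibroblasts and Krt5-led cells too. In fibroblast sub-state 1 it was at 181.4 CPM in Dll1+ and 91.0 CPM in Dll1- cells, 1.99-fold higher (1.43 to 2.73), whereas in the dividing sub-state 4 it was at 366.7 and 640.4 CPM, 1.75-fold lower (1.45 to 2.11). In Krt5-led cells the Pou3f1 and Krt42 sub-state had 254.3 and 372.4 CPM and the Spp1 and Vcam1 sub-state had 230.2 and 303.5 CPM. The Cst6 and Krt1 sub-state had 382.6 and 385.5 CPM. The Acta2 and Myh11 sub-state, with 142 Dll1+ cells and 10 Dll1- cells, had 149.4 and 430.0 CPM.

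Vcan (ENSMUSG00000021614; chr13:89655312-89742509, minus strand) was at 380.9 CPM (359.4 to 403.3) in Dll1+ and 343.7 CPM (325.8 to 362.3) in Dll1- fibroblast-like cells, a ratio of 1.11 (1.02 to 1.199). Pericyte-like cells came next with 78.6 and 69.5 CPM, with overlapping intervals between the libraries. Among fibroblasts it was highest in the dividing sub-state, at 763.9 CPM in Dll1+ and 514.8 CPM in Dll1- cells, and lowest in sub-state 3, at 214.2 and 216.4 CPM. Sub-state 1 had 366.4 and 291.6 CPM and sub-state 2 had 396.7 and 403.0 CPM.

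Krt5-led cells of the Dll1+ tumor also had Vcan, with 57 UMIs in 31 of 306 cells (15.2 CPM), against 1 UMI in 1 of 294 Dll1- cells (0.372 CPM), a ratio of 40.9 with a counting interval of 7.05 to 1643. In the Acta2 and Myh11 sub-state 142 Dll1+ cells had 22 UMIs and 10 Dll1- cells had 0. In the Spp1 and Vcam1 sub-state 41 Dll1+ cells had 11 and 96 Dll1- cells had 1. In the dividing sub-state 39 Dll1+ cells had 24 and 13 Dll1- cells had 0. The Pou3f1 and Krt42 sub-state had none in either library. The class ratio was thus read over sub-states that the libraries share unevenly. The fibroblast markers were also higher in sum, at 1360 CPM in Dll1+ and 425 CPM in Dll1- Krt5-led cells, with Pdgfra at 0 in the Dll1+ cells. Has1, at 434.9 CPM in Dll1+ fibroblast-like cells, had 1 UMI in Krt5-led cells of each library (0.267 CPM in Dll1+ and 0.372 CPM in Dll1-). Which cells the Vcan UMIs came from was not tested. Where only the cells poorest in marker UMIs of other classes were used, the log2 ratio of Vcan was 3.30, against 3.56 over all Krt5-led cells, but Vcan then had fewer than 30 UMIs and no longer counted as measured, so the call was lost. In epithelial-like cells Vcan was at 1.92 CPM (160 UMIs) in Dll1+ and 0.910 CPM (96 UMIs) in Dll1-, 2.11-fold higher (1.63 to 2.75), while the fibroblast markers summed to 80.5 and 23.7 CPM and Has1 was at 0.385 and 0.559 CPM. The log2 ratio of CPM plus 1 of Vcan was 0.61 there and 0.39 in the cells poorest in marker UMIs of other classes, where it no longer reached 1.5-fold.

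By the 1.5-fold rule, epithelial-like cells had all 8 genes measured, with Vcan higher and Cd44 lower in the Dll1+ tumor and 6 between, where 20.6% of all measured genes were higher and 5.87% lower. Of the 6, Has1, Has2, Has3 and Cemip were near or below 1 CPM in both libraries. There the added 1 CPM pulls a ratio towards no difference, so the rule says little about them. Without the added 1 CPM, Cemip was 2.11-fold lower in Dll1+ epithelial-like cells (1.46 to 3.12). Krt5-led cells had 5 measured, again with Vcan higher and Cd44 lower, and Has2, Hyal1 and Hyal2 between, against 15.7% of all genes higher and 9.21% lower. Pericyte-like cells had 4 measured, Has2, Hyal2, Cd44 and Vcan, all between, against 17.2% higher and 5.02% lower. The median log2 ratio of all measured genes was 0.20 in epithelial-like, 0.11 in Krt5-led, 0.15 in pericyte-like, 0.06 in endothelial-like and 0.03 in fibroblast-like cells. Scaling by TMM factors moved those ratios by -0.26, -0.12, -0.14, -0.08 and -0.05 in that order. The share of higher genes among all genes past 1.5-fold went with it, at 77.8% by UMI totals and 56.6% by TMM in epithelial-like cells, 63.1% and 49.98% in Krt5-led cells, 77.4% and 60.6% in pericyte-like cells and 69.1% and 55.6% in endothelial-like cells. On the TMM scale Cd44 was at a log2 ratio of -1.67 in epithelial-like and -0.99 in Krt5-led cells, Vcan at 0.47 and 3.49, and Cemip at 3.50 in fibroblast-like cells. Hyal2 in epithelial-like cells was at -0.78 on the TMM scale, past 1.5-fold lower, against -0.54 by UMI totals, while Vcan at 0.47 there was no longer past it.

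Across the 10 sums of 5 classes and 2 libraries, the genes whose log2 levels ran closest to each member were named by Pearson's r, as a description over sums that share libraries and depth. Has1 was nearest to Dpep1 (0.996), Cxcl13 (0.995) and Bmp3 (0.994), and Cemip to Col8a2 (0.981), Sfrp2 (0.942) and Thbs4 (0.939). Vcan was nearest to Islr (0.987), Slc8a1 (0.982) and Fhl1 (0.975), and Has2 to Adamtsl5 (0.990), Cers6 (0.985) and Tmem45a (0.982). Among the nearest to Cd44 were Gpc1 (0.984) and Hk2 (0.956), the nearest to Hyal2 were Ptpre (0.982), Adgrl2 (0.964) and Cdk17 (0.961), and the nearest to Hyal1 were Plekhn1 (0.954), Gata3 (0.9505) and Itgb8 (0.941). Has3, which never exceeded 3.34 CPM, was nearest to S100a3 (0.995), Sprr2h (0.993) and Stfa3 (0.993).

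The wider pathway was read from 6 lists with 55 genes in all: UDP-sugar precursor supply, other breakdown enzymes, other receptors, link proteins and hyaluronan-binding matrix, versican proteases and partners, and Cd44 partners. In fibroblast-like cells 36 were measured, of which 6 were higher in the Dll1+ tumor, 3 lower and 27 between, with a median log2 ratio of 0.05, beside 8.58% higher and 5.27% lower of all genes measured there and their median of 0.03. The related genes higher numbered 2 and those lower 5, of 30 measured, when cells were thinned to 2000 UMIs. The 3 lower became 6 with TMM factors, but 1 with 10 CPM added. With sub-states of at least 30 cells of each library weighted alike they became 1. In sub-state 2, the only one with at least 50 cells of each library, they became 0. The precursor supply list, whose products are the sugars that Has enzymes join, had all 7 genes measured, 0 higher and 2 lower, and a median log2 ratio of -0.53. The lower genes were Ugdh, which makes UDP-glucuronic acid, at 520.2 CPM in Dll1+ and 782.1 CPM in Dll1- cells, and Gnpnat1, an enzyme of UDP-N-acetylglucosamine synthesis, at 75.3 and 133.4 CPM. Neither was called lower in sub-state 2 alone. Sub-state 1 held 38 Dll1+ and 353 Dll1- cells, so the list's median was read over sub-states that the libraries share unevenly. Tnfaip6, whose product TSG-6 binds hyaluronan, was between at 989.7 and 1334.3 CPM, as were Itih5 at 325.0 and 418.3 CPM and Ptx3 at 856.5 and 823.7 CPM.

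The fibroblast genes that were higher in the Dll1+ tumor came from the remaining lists. Tnc, the matrix glycoprotein tenascin-C, was at 127.7 CPM in Dll1+ and 35.1 CPM in Dll1- cells, and Spp1, the Cd44 ligand osteopontin, at 99.6 and 23.1 CPM. Cemip2, a cell surface relative of Cemip, was at 20.05 and 8.21 CPM, and the versican protease gene Adamts9 at 8.08 and 3.24 CPM. Of the receptor list, Tlr2 was at 13.6 and 8.46 CPM and Tlr4 was lower, at 11.6 and 19.7 CPM. Mmp9, a matrix protease that docks on Cd44, was at 10.3 and 4.48 CPM.

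**Figure D5:**
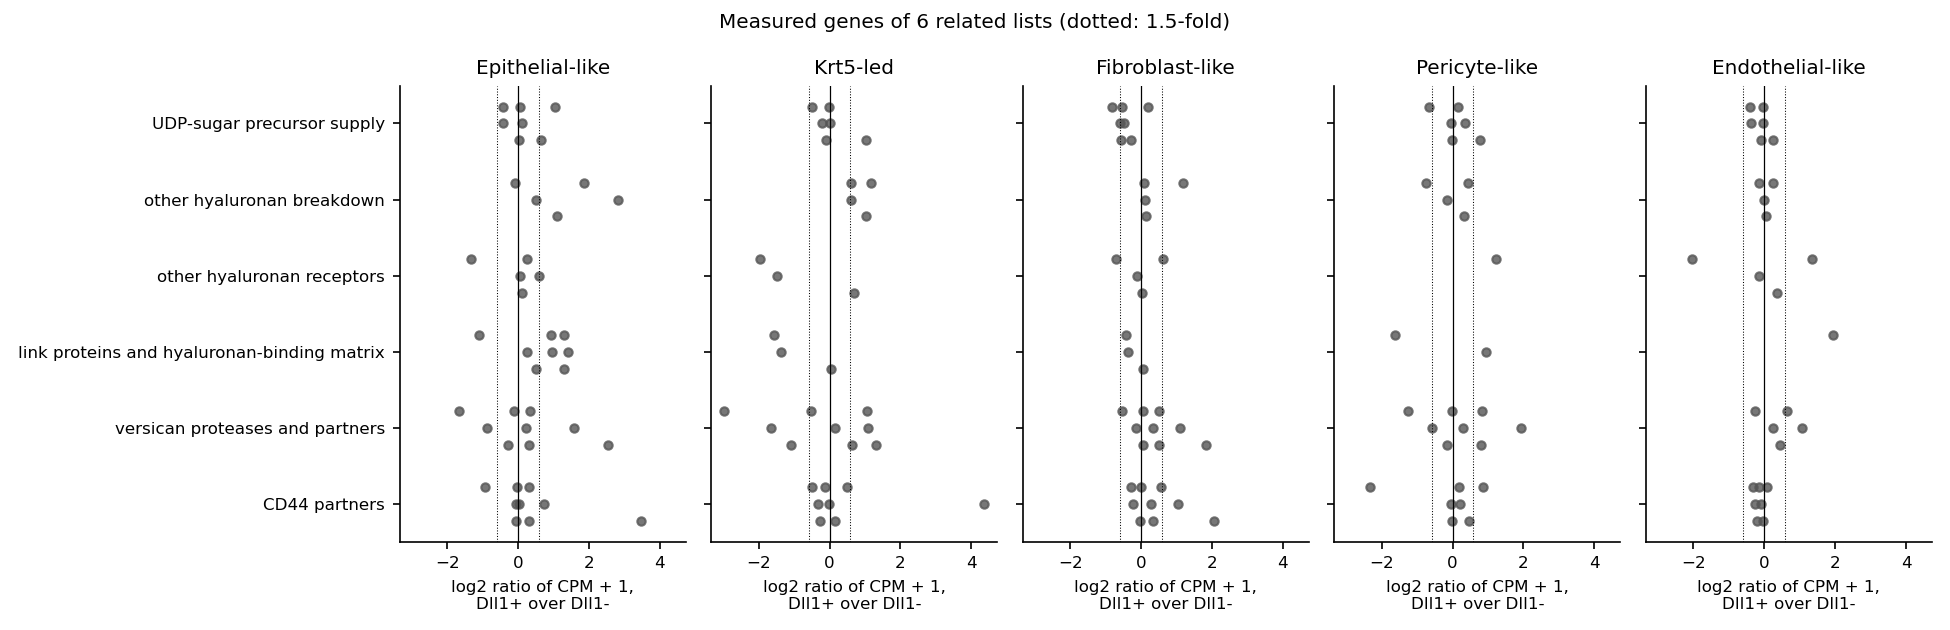
Log2 ratio of CPM plus 1, Dll1+ over Dll1-, for every measured gene of the 6 related lists in each of the 5 classes, with 1 point per gene. In fibroblast-like cells no gene of the precursor supply list lies past 1.5-fold on the Dll1+ side, and its median is -0.53. That median is over the whole class, whose sub-states the libraries share unevenly.

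In epithelial-like cells 43 of the 55 related genes were measured, and 15 were higher, 5 lower and 23 in between (median log2 ratio 0.26), beside 20.6% higher and 5.87% lower of all genes measured there and their median of 0.20. The 15 became 7 with shared sub-states weighted alike, and also with 10 CPM added. The lysosomal hexosaminidase gene Hexa, whose product trims sugars from hyaluronan fragments, was at 18.3 CPM in Dll1+ cells, against 1.72 CPM in Dll1- cells. Spp1 was at 680.3 CPM in Dll1+ and 60.9 CPM in Dll1- cells, and Mmp14, a membrane protease that can cut Cd44, at 67.5 and 40.3 CPM. Msn, which encodes moesin, a linker of Cd44 to actin, was lower at 75.2 and 144.2 CPM. The versican protease gene Adamts15 was lower at 4.84 and 17.6 CPM, and the fibulin gene Fbln2 higher at 28.3 and 4.002 CPM. Tnfaip6 was lower at 8.56 and 19.6 CPM.

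Krt5-led cells had 33 related genes measured, of which 11 were higher, 7 lower and 15 in between (median log2 ratio 0.00), beside 15.7% higher and 9.21% lower of all genes measured there and their median of 0.11. The 11 became 3 of 20 measured when cells were thinned, 6 of 31 measured at the finer clustering, 6 with 10 CPM added, and 7 with TMM factors or the shared sub-state alone. The percentages of all genes are for the reported setting only. Breakdown genes among the higher ones were Hexa, at 13.1 CPM in Dll1+ and 5.20 CPM in Dll1- cells, Gusb at 30.7 and 14.5 CPM, and Cemip2 at 68.8 and 45.0 CPM. Tnc was lower at 13.6 and 113.3 CPM, opposite to fibroblasts, and so was the hyaluronan scavenger receptor gene Stab1 at 7.73 and 32.7 CPM. Spp1 was higher at 1147.7 and 54.6 CPM.

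In pericyte-like cells 28 related genes were measured, of which 7 were higher, 5 lower and 16 in between (median log2 ratio 0.17), beside 17.2% higher and 5.02% lower of all genes measured there and their median of 0.15. The 7 became 2 of 23 measured when cells were thinned and 3 of 24 in the cells poorest in marker UMIs of other classes. Tnfaip6 was lower at 23.3 CPM in Dll1+ and 73.5 CPM in Dll1- cells, and Spp1 was lower at 143.4 and 726.3 CPM, while it was higher in Dll1+ cells of the fibroblast-like, epithelial-like and Krt5-led classes. The versican protease gene Adamts1 was lower at 111.3 and 264.9 CPM and Adamts5 higher at 22.2 and 5.04 CPM. In endothelial-like cells 27 were measured, of which 4 were higher, 1 lower and 22 in between (median log2 ratio -0.03), beside 9.93% higher and 4.43% lower of all genes measured there and their median of 0.06, so the lower share was near that of all genes. The lower gene was Lyve1, the hyaluronan receptor of lymphatic endothelium, at 4.96 CPM (7 UMIs) in Dll1+ and 23.6 CPM (31 UMIs) in Dll1- cells. Where doublets were kept, a sub-state led by Ccl21a, Mmrn1, Lyve1 and the lymphatic marker Prox1 came apart with 2 Dll1+ and 9 Dll1- cells; the part of these cells in the Lyve1 difference was not tested. Adamts9 was at 149.6 and 95.2 CPM and Adamts5 at 41.1 and 19.0 CPM, both higher, and Stab1 was between at 298.4 and 231.4 CPM.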

How the data were processed

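The deposited matrices hold raw UMI counts per gene and barcode; the authors used Cell Ranger (4.0.0, per the file headers) and mm10 (per the submitters' processing notes), and no source used here gives the strand setting. Barcodes with at least 1000 UMIs, 500 genes and at most 20% mitochondrial UMIs were kept. The highest-scoring barcodes of a simulated-doublet score were removed at 0.8% per 1000 cells (896 Dll1+ and 989 Dll1-); the automatic threshold marked 0 in both libraries. Cells were scaled to 10000 UMIs and clustered on 2000 variable genes, 30 components and 15 neighbours (scanpy 1.11.5, leidenalg 0.10.2, resolution 0.6; sub-states at 0.4). A cluster was named from marker lists where at least 3 markers were detected; clusters that were shallow or led by another class's genes stayed unnamed (300 Dll1+ and 97 Dll1- cells). Counts were summed per class and library and divided by the class's UMI total. Intervals are exact Poisson, binomial and Clopper-Pearson (95%, scipy 1.17.1); PCR duplicates are removed by UMIs, and intervals cover counting error only. TMM factors came from edgeR 4.0.16 and were the only use made of it. The ratio calculation was tested on simulated data. Named related genes are those with the 2 highest and 2 lowest ratios of a list in a class, plus others past 1.5-fold that were chosen after their values were seen; similar genes needed 20 CPM in at least 1 sum. Some genes that these rules pick are not reported here. Positions are from GENCODE M21 on mm10, in which 32158 of 32285 gene IDs were found. The members and lists were chosen with earlier results of these data known. Alternatives covered cell filters, doublets, shared barcodes, scaling, thinning to 2000 UMIs, the added CPM, clustering, sub-states, RNA of other classes and the minimum count.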

Additional observations from a re-analysis of the deposited data

How the results depend on the processing

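No paired analysis was possible because each group is 1 library, and for the same reason no library could be left out. Cemip in fibroblast-like cells kept a log2 ratio of 2.12 to 3.63 and stayed past 1.5-fold in 12 of 12 alternatives. The 12 alternatives include the one with no minimum of 30 UMIs, which cannot change a ratio of a gene, here or in the tallies below. They also include resolution 1.2, where the fibroblast-like sub-states held the same numbers of cells as before, so that setting did not probe the fibroblast ratios. Cd44 in epithelial-like cells stayed lower in 10 of 12 and reversed to 0.23 where sub-states with at least 50, or at least 30, cells of each library were weighted alike, which leaves out the sub-states found almost only in the Dll1+ library. Cd44 in Krt5-led cells ranged from -0.99 to -0.48 (past 1.5-fold in 10 of 12), Vcan in Krt5-led cells from 0.00 to 4.01 (past 1.5-fold in 11 of 12, 0 where only the Pou3f1 and Krt42 sub-state was left; in the cells poorest in RNA of other classes the ratio stayed past 1.5-fold but Vcan fell under the minimum of 30 UMIs and was not counted) and Vcan in epithelial-like cells from 0.13 to 0.62 (3 of 12). Has1 in fibroblast-like cells ranged from -0.56 to 0.17, and Has2 there from 0.08 to 1.37. Of 236 recomputed counts of genes, 179 stayed within 1.5 times the reported count and 57 did not; the cause was not tested unless the setting's own construction shows it. The counts that moved are given as hyaluronan genes (of the 8) or related genes (of the 6 lists), with the reported count in parentheses. Several settings also changed how many genes were measured. For related genes this number went from 33 to 20 in Krt5-led cells when thinned, and from 36 to 47 in fibroblast-like cells with no minimum. The percentages of all measured genes called higher or lower are given for the reported setting only. With no filter on cells, hyaluronan genes higher in epithelial-like cells numbered 0 (1) and lower in fibroblast-like cells 1 (0), and related genes lower in endothelial-like cells 2 (1). With doublets kept, 0 (1) hyaluronan genes were higher in epithelial-like cells. At resolution 1.2, hyaluronan genes higher numbered 0 (1) in epithelial-like and 2 (1) in Krt5-led cells, and related genes higher in Krt5-led cells 6 (11). Thinned to 2000 UMIs, hyaluronan genes in epithelial-like cells were 0 (1) higher and 2 (1) lower and in endothelial-like cells 1 (0) lower, and related genes were 3 (11) higher and 3 (7) lower in Krt5-led, 2 (6) higher and 5 (3) lower in fibroblast-like, 2 (7) higher in pericyte-like and 0 (1) lower in endothelial-like cells. In the cells poorest in RNA of other classes, hyaluronan genes higher numbered 0 (1) in epithelial-like, 0 (1) in Krt5-led and 1 (0) in pericyte-like cells, and related genes higher in pericyte-like cells 3 (7). With sub-states of at least 50 cells weighted alike, hyaluronan genes were 0 (1) lower in epithelial-like and 2 (1) higher and 1 (0) lower in fibroblast-like cells, and related genes 7 (15) higher and 3 (5) lower in epithelial-like, 7 (11) higher in Krt5-led and 0 (3) lower in fibroblast-like cells; fibroblast-like and Krt5-led cells had 1 such sub-state each and pericyte-like cells none, so it was not run in pericyte-like cells. At 30 cells, chosen after seeing the data, hyaluronan genes were 0 (1) lower in epithelial-like, 2 (1) higher and 0 (1) lower in Krt5-led and 2 (1) higher in fibroblast-like cells, and related genes 7 (15) higher and 3 (5) lower in epithelial-like and 3 (6) higher and 1 (3) lower in fibroblast-like cells. With sub-states that had been moved out of a class put back, also chosen after seeing the data, hyaluronan genes higher in pericyte-like cells numbered 1 (0) and related genes lower there 3 (5). With TMM factors, hyaluronan genes in epithelial-like cells were 0 (1) higher and 2 (1) lower, and related genes 7 (11) higher in Krt5-led and 6 (3) lower in fibroblast-like cells. With 10 CPM added, hyaluronan genes higher in epithelial-like cells numbered 0 (1), and related genes 7 (15) higher and 3 (5) lower in epithelial-like, 6 (11) higher in Krt5-led, and 3 (6) higher and 1 (3) lower in fibroblast-like cells. With no minimum of 30 UMIs, which adds genes with few counts, hyaluronan genes were 2 (1) lower in Krt5-led, 1 (0) lower in fibroblast-like, 2 (0) higher in pericyte-like and 1 (0) higher and 1 (0) lower in endothelial-like cells, and related genes 10 (6) higher in fibroblast-like, 12 (7) higher and 9 (5) lower in pericyte-like, and 12 (4) higher and 3 (1) lower in endothelial-like cells. Has3, with 17 Dll1+ and 32 Dll1- UMIs, was too rare for a ratio in classes other than the epithelial-like one.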

Other observations

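A small group of 61 Dll1+ cells and 1 Dll1- cell, set apart from the pericyte-like class because it was led by genes of fibroblasts such as Dcn, Lum and Saa3, was low in Has1 and Cemip. In the Dll1+ cells Has1 was at 4.91 CPM (2 UMIs) and Cemip had 0 UMIs, against 434.9 and 174.6 CPM in Dll1+ fibroblast-like cells. Vcan was at 88.4 CPM and Cd44 at 71.2 CPM in the same cells. The Dll1+ pericyte-like class from which they were set apart had 2.22 CPM of Has1, 0.554 CPM of Cemip and 78.6 CPM of Vcan, close to these values, and 150.6 CPM of Cd44. With 1 Dll1- cell, the libraries could not be compared. The cells left without a class, 300 Dll1+ and 97 Dll1-, had 36.4 and 21.8 CPM of Has1, 20.4 and 20.8 CPM of Cemip, and 63.1 and 38.4 CPM of Vcan. Of their 42 Dll1+ and 20 Dll1- Cemip UMIs, 40 and 18 came from the sub-state moved out of the fibroblast-like class.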
